A study of Mus musculus with 19 samples.

Results

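Genes of the androgen response were followed in C57BL/6J mice on a high fat diet (HFD) or a control diet, across the dorsolateral (DLP) and the ventral (VP) lobe of the prostate. Of 6 genes chosen by name for this pathway, 4 had probe sets that the platform annotation gives to that gene alone, and these were Fkbp5, Foxa1, Pmepa1 and Acpp (also called Acp3). The steroid reductases Srd5a1 and Srd5a2 had none under that rule and were not analysed here, and the androgen receptor itself was not among the 6 names. The 4 genes had 10 probe sets between them, and the probe set with the highest mean over all 19 arrays stood for each gene. All 4 passed the filter on low values and are among the 11728 genes tested.

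Each diet was fed ad libitum to 5 mice for 12 weeks, from an age of 8 weeks. RNA from whole lobes was hybridised to a 3′ expression array, 1 sample per array. The groups were HFD DLP (4 arrays), control DLP (5 arrays), HFD VP (5 arrays) and control VP (5 arrays). No label ties an array to a mouse. With 5 mice per diet and 1 sample per array there are more arrays than mice, so some arrays share a mouse. Which ones do is not given, and both lobes of a mouse may be among them. The main tests take the arrays as independent and measure only the spread between these samples, which may be partly technical. In whole tissue, fewer cells of a type and less RNA per cell cannot be told apart.

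In prostate epithelium, testosterone is reduced to dihydrotestosterone, which binds the androgen receptor. The receptor leaves a complex of heat shock proteins and FKBP co-chaperones, enters the nucleus and binds DNA, often at sites that the forkhead protein Foxa1 has opened. Fkbp5 encodes such a co-chaperone and is induced by androgens and by glucocorticoids. Pmepa1, known in human prostate as an androgen-induced gene, encodes a membrane protein that restrains TGF-beta signalling. Acpp encodes prostatic acid phosphatase, a secreted product of the human prostate that also has a transmembrane form. The lobes of the mouse prostate are separate glands whose epithelia secrete different proteins.

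The promoters of Acpp and Fkbp5 are shown because both genes had a lower level in DLP, described next. Each is the stretch of 250 bases before the start site in RefSeq's GRCm38.p6 annotation, written 5′ to 3′ on the gene's strand. The Acpp window lies at chr9:104337723-104337972 and the Fkbp5 window at chr17:28486150-28486399, each on the minus strand. For Foxa1 the start site in the table lies inside the annotated span of the gene, and its window is not shown. Capitals would mark the motifs searched, and neither window has any.
Acpp: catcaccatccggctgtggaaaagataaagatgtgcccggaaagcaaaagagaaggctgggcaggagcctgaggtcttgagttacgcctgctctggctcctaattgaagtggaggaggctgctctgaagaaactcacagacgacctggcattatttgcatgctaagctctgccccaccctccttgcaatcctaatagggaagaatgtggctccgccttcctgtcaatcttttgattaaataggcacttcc
Fkbp5: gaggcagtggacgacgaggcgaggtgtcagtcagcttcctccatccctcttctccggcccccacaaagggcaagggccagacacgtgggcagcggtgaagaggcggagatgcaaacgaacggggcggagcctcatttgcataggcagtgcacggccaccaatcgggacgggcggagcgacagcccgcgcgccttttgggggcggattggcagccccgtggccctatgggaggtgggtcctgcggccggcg
The core bound by forkhead proteins, TGTTTAC on either strand, did not occur in either window, and 3.17% of the 32851 promoter windows of this length in the same table held it. The hexamer recognised by the androgen and glucocorticoid receptors, TGTTCT on either strand, was likewise absent from both, and 16.1% of all windows held it. The full palindrome, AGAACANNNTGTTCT, contains that hexamer and occurred in 3 of the 32851 windows. The Foxa1 window, which is not shown, was also searched and held 1 forkhead core and neither of the other motifs. The absence of these letters from a window says nothing about binding elsewhere, and a match does not show binding.

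The differences that passed the test were between lobes. Fkbp5, Foxa1 and Acpp were lower in DLP than in VP on both diets, and Pmepa1 did not pass the test on either. On the high fat diet 3 of the 4 passed, all lower in DLP, where 52.9% of all genes passed in either direction and 26.1% passed as lower in DLP. Fkbp5, Foxa1 and Acpp also passed on the control diet, against 55% of all genes in either direction and 26.8% lower in DLP. With shares this large, 3 of 4 is not a result particular to these genes, and the sizes below carry the description. The share of all genes without overlap between the lobes was not counted, so the lack of overlap given below is likewise only description. No array is shared between the HFD and the control lobe comparison.

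Levels are log2 values converted from the deposited log10 values. The log base and an offset of 1 inside the logarithm are assumptions, and each fold rests on them. Every array has the same set of sorted values, so a level reflects the rank of a probe set on its array.

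Fkbp5 had log2 levels of 6.66, 6.47, 6.46 and 6.24 on the HFD DLP arrays, against 8.16, 7.65, 7.70, 7.42 and 7.92 on the HFD VP arrays. Control diet arrays had log2 levels of 6.36, 6.62, 6.80, 6.76 and 6.56 in DLP, against 7.59, 7.96, 7.56, 8.31 and 8.02 in VP. Every DLP array lay below every VP array. The log2 difference, DLP minus VP, was -1.31 ± 0.15 (SE) on the high fat diet (limma's adjusted p = 4.57e-07) and -1.27 ± 0.14 (SE) on the control diet (limma's adjusted p = 3.17e-07). These are levels 2.49-fold and 2.41-fold lower in DLP. A second Fkbp5 probe set, 1448231_at, differed by -1.47 on the high fat diet and -1.40 on the control diet, with adjusted p-values of 4.15e-08 and 3.34e-08. The third, 1447736_at, lay below the array median of 1.85 on all 19 arrays and differed by -0.20 on the high fat diet and 0.18 on the control diet, with adjusted p-values of 0.401 and 0.408.

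Foxa1, which has 1 probe set, had log2 levels of 8.43, 8.53, 8.55 and 8.41 on the HFD DLP arrays, against 9.49, 9.69, 9.22, 9.42 and 9.61 on the HFD VP arrays. The control diet log2 levels were 8.41, 8.60, 8.71, 8.30 and 8.30 in DLP, against 9.05, 9.54, 9.32, 9.43 and 9.38 in VP. The lobes did not overlap on either diet. The difference was -1.01 ± 0.11 (SE) on the high fat diet and -0.88 ± 0.10 (SE) on the control diet, with limma's adjusted p-values of 1.52e-07 and 4.08e-07. Foxa1 was thus 2.01-fold lower in DLP on the high fat diet and 1.84-fold lower on the control diet. It stayed among the brightest probe sets in both lobes, between the 98.8th and the 99.6th percentile of its array.

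Acpp lay below the array median in DLP and above it in VP. Its log2 levels were 1.13, 1.78, 1.38 and 1.51 on the HFD DLP arrays, against 4.06, 4.81, 3.43, 4.28 and 4.52 on the HFD VP arrays. Control diet levels were 1.66, 1.22, 1.54, 1.56 and 1.13 in DLP, against 3.73, 4.19, 3.64, 4.11 and 3.74 in VP. All 9 DLP arrays lay below the array median and all 10 VP arrays above it, so the gene passed the filter through VP alone. The difference was -2.77 ± 0.21 (SE) on the high fat diet (limma's adjusted p = 1.08e-09) and -2.46 ± 0.20 (SE) on the control diet (limma's adjusted p = 2.6e-09). The corresponding folds of 6.82 and 5.51 are uncertain in size because the DLP values are dim. With an offset of 16 in place of 1 the Acpp difference was -0.94 on the high fat diet and -0.75 on the control diet, with adjusted p-values of 1.04e-07 and 8.66e-07. At that offset Fkbp5 differed by -1.18 (HFD) and -1.15 (control) and Foxa1 by -0.98 (HFD) and -0.85 (control), so the order of the 3 genes by size depends on the offset.

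The lobe difference of Acpp rested on probe set 1441975_at. Its other probe sets lay below the array median on all 19 arrays. Probe set 1453943_a_at differed by -0.25 on the high fat diet (limma's adjusted p = 0.247) and by -0.45 on the control diet (0.0253). Probe set 1419832_s_at differed by -0.24 on the high fat diet and -0.13 on the control diet, with adjusted p-values of 0.271 and 0.517. The part of the transcript that each probe set reads was not tested.

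Pmepa1 had log2 levels of 2.66, 2.41, 2.49 and 2.70 on the HFD DLP arrays, against 2.40, 2.19, 3.22, 3.03 and 2.38 on the HFD VP arrays. Control diet levels were 3.19, 2.91, 2.73, 2.53 and 2.76 in DLP, against 3.18, 2.50, 2.72, 2.72 and 2.32 in VP. The groups overlapped throughout. The difference was -0.08 on the high fat diet, with a 95% interval from -0.49 to 0.33, and 0.14 on the control diet, with an interval from -0.25 to 0.53, and limma's adjusted p-values were 0.755 and 0.553. A lobe difference like that of Foxa1 lies outside both intervals, on the scale of the array values. Pmepa1 was dimmer than Foxa1, between the 57th and the 72nd percentile of its array. With an offset of 16 its difference was -0.03 (HFD) and 0.04 (control), so dim signal limits what the intervals say about transcript levels. Probe set 1422705_at lay above the array median on 16 arrays and differed by -0.03 on the high fat diet and 0.12 on the control diet. Probe set 1452295_at lay above it on 3 and differed by -0.24 on the high fat diet and -0.29 on the control diet, and none of these passed.

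**Figure D1:**
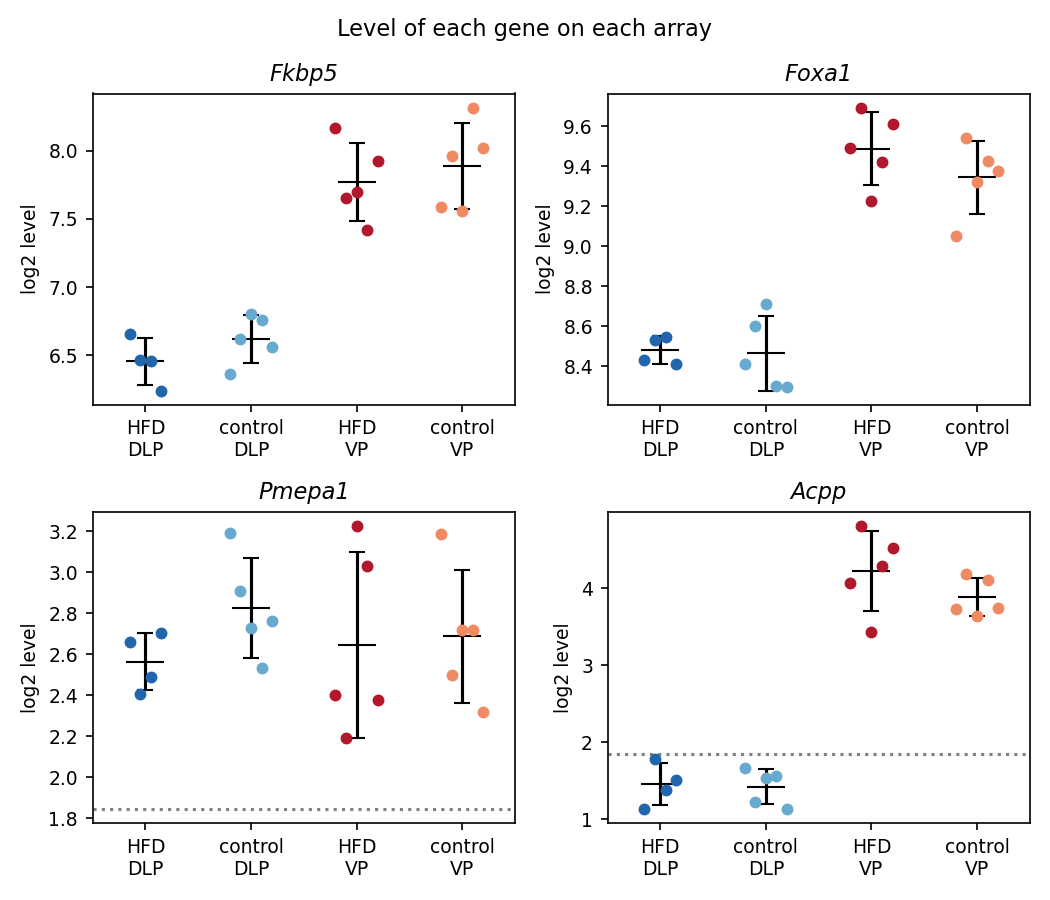
Log2 level (vertical axis) of each gene on each of the 19 arrays (dots), with the mean and SD of each group (bar and whiskers) and, for Pmepa1 and Acpp, the array median of 1.85 (dotted line). The vertical axes do not start at 0 and differ between genes. Fkbp5, Foxa1 and Acpp separate by lobe on both diets, and the Pmepa1 groups overlap.

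**Figure D2:**
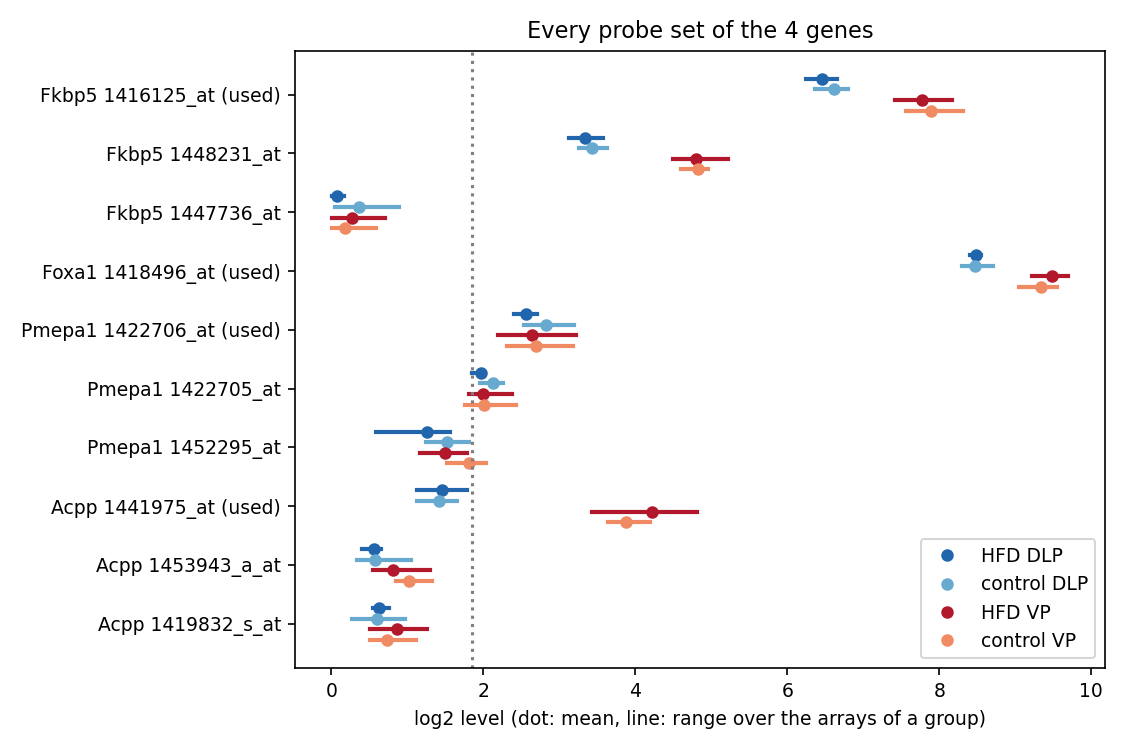
Mean (dot) and range (line) of the log2 level in each group for all 10 probe sets of the 4 genes, with the array median of 1.85 as a dotted line. Both Fkbp5 probe sets above the median separate the lobes, whereas among the 3 Acpp probe sets only 1441975_at lies above the median in VP.

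By diet, none of the 4 genes passed in either lobe. In VP, 1.11% of all genes passed, with limma's adjusted p-values of 0.753 for Fkbp5, 0.529 for Foxa1, 0.942 for Pmepa1 and 0.433 for Acpp. In DLP, 0% of all genes passed in limma's test, with 662 genes at an unadjusted p under 0.05, and the smallest adjusted p among the 4 genes was 0.994. HFD and control arrays of a lobe overlapped for each of the 4 genes.

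Fkbp5 averaged 7.77 ± 0.28 in HFD VP and 7.89 ± 0.32 in control VP (log2, SD, n = 5 each), a difference of -0.12 with a 95% interval from -0.42 to 0.18. In DLP it averaged 6.46 ± 0.17 on the high fat diet (SD, n = 4) and 6.62 ± 0.18 on the control diet (SD, n = 5), a difference of -0.16 with an interval from -0.48 to 0.15. A 1.5-fold change in either direction lies outside both intervals, whose folds run from 0.749 to 1.13 in VP and from 0.716 to 1.11 in DLP.

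Foxa1 averaged 9.49 ± 0.18 in HFD VP and 9.34 ± 0.18 in control VP (log2, SD, n = 5 each), a difference of 0.14 with an interval from -0.07 to 0.36. Its DLP difference was 0.02, with an interval from -0.21 to 0.24. These were the narrowest intervals of the 4 genes.

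Acpp averaged 4.22 ± 0.52 in HFD VP and 3.88 ± 0.25 in control VP (log2, SD, n = 5 each), a difference of 0.34 with an interval from -0.07 to 0.75. Array 3 of HFD VP held both the lowest Acpp level and the lowest Foxa1 level of its group and the highest Pmepa1 level. Without array 3 of HFD VP and array 4 of control VP, which stood apart in earlier results of these data, the Acpp difference was 0.59 with limma's adjusted p of 0.0994. Without both arrays the VP diet difference was 0.006 for Fkbp5, 0.23 for Foxa1 and -0.18 for Pmepa1, and none passed. In DLP the Acpp difference was 0.03, with an interval from -0.41 to 0.47.

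Pmepa1 varied most in HFD VP, where its SD was 0.45, and its diet difference was -0.04 in VP, with an interval from -0.43 to 0.35. In DLP the difference was -0.26, with an interval from -0.67 to 0.15. Its probe set 1452295_at gave -0.32 in VP and -0.26 in DLP, without passing.

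The diet differences of the lobes were compared directly, a test that 0.00853% of all genes passed (1 gene). DLP minus VP, the diet difference differed by -0.05 for Fkbp5, -0.13 for Foxa1, -0.22 for Pmepa1 and -0.31 for Acpp. None passed, with limma's adjusted p-values from 0.809 for Acpp to 0.978 for Fkbp5. The widest interval, that of Acpp, ran from -0.91 to 0.29.

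**Figure D3:**
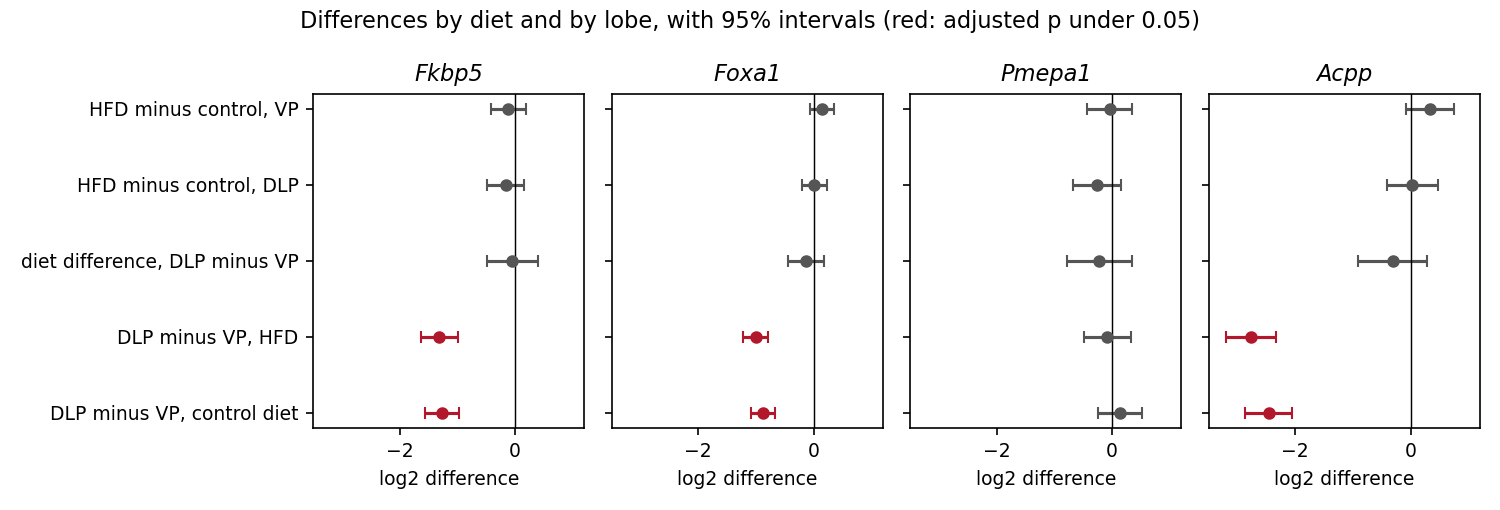
Log2 differences (dots) with 95% intervals (whiskers) for each gene by diet in VP and DLP, for the difference between the lobes in diet response, and by lobe on each diet. Differences by lobe for Fkbp5, Foxa1 and Acpp (red) passed limma's test, and every diet interval includes 0.

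Ordered by mean level, Fkbp5 ran from HFD DLP (6.46) through control DLP (6.62) and HFD VP (7.77) to control VP (7.89). Foxa1 and Acpp ran from control DLP through HFD DLP and control VP to HFD VP. For these 3 genes neighbours within a lobe overlapped, and the step from DLP to VP was the only one without overlap between arrays. How common such a step is over all genes was not counted. Pmepa1 had its lowest mean in HFD DLP (2.56) and its highest in control DLP (2.82), with overlap between all groups.

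The arrays carried luminal epithelial RNA in both lobes, since all 6 luminal markers (Krt8, Krt18, Krt19, Cd24a, Epcam and Cdh1) lay above the array median on every array and none was at 0. Their summed signal, on the linear scale, ranged from 4186 to 5076 in HFD DLP and from 3557 to 4544 in control DLP, against 3242 to 4128 in HFD VP and 3063 to 4355 in control VP. The markers in this sum did not move together. On the high fat diet 2 of 6 passed as higher and 3 as lower in DLP. On the control diet 1 passed as higher and 3 as lower. Krt8, Epcam and Cdh1 were lower on both diets. Epcam had log2 levels of 8.52 to 8.69 in HFD DLP and 8.45 to 8.53 in control DLP, against 9.05 to 9.28 in HFD VP and 8.89 to 9.10 in control VP, and Cd24a was higher in DLP. The 6 smooth muscle markers, all above the median on every array, summed to 2720 to 2963 in HFD DLP and 2330 to 2658 in control DLP. In VP they summed to 1892 to 2661 on the high fat diet and 1859 to 2368 on the control diet. On each diet 4 of the 6 passed as higher in DLP, and Acta2 and Tagln passed on neither. Basal epithelial markers (Krt5, Krt14, Krt15 and Trp63) passed as higher in DLP for 2 of 4 on the high fat diet and 4 of 4 on the control diet, with summed signals of 60.6 to 70.6 in HFD DLP and 54.9 to 88.4 in control DLP, against 33.4 to 63.4 in HFD VP and 32.4 to 60.4 in control VP. Nerve markers (Nefl, Uchl1, Prph and Stmn2) also passed as higher for 2 of 4 on the high fat diet and 4 of 4 on the control diet. Their sums were 16.01 to 25.7 in HFD DLP and 13.8 to 149.5 in control DLP, against 5.24 to 7.93 in HFD VP and 4.79 to 9.15 in control VP. Of the 4 nerve markers, 3 lay below the array median on every VP array, so these passed the filter through DLP alone. On each diet 1 of 5 fibroblast markers was higher and 1 of 4 macrophage markers lower in DLP, and 0 of 3 endothelial markers passed. Over all 11728 genes, 3146 were higher and 3058 lower in DLP on the high fat diet, or 52.9% in either direction. On the control diet 3307 were higher and 3144 lower, or 55%. Beside shares this large, counts from lists this short are no result about cell types. The part of cell composition in the lobe differences of Fkbp5, Foxa1 and Acpp was not tested.

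Secreted proteins varied between arrays of 1 lobe. Spink1, a secreted protease inhibitor, had log2 levels of 12.48 to 12.73 in HFD VP and 12.07 to 12.48 in control VP. In HFD DLP they were 3.51, 11.58, 3.64 and 4.07, and in control DLP 6.96, 11.81, 7.63, 10.21 and 6.34, with array 2 the highest on both diets. Without array 2 of HFD DLP the lobe differences on the high fat diet were -1.32 for Fkbp5, -1.02 for Foxa1 and -2.88 for Acpp. Without array 2 of control DLP those on the control diet were -1.27 for Fkbp5, -0.91 for Foxa1 and -2.41 for Acpp. Tgm4, the prostate transglutaminase, reached 2.37 at most in VP and was at least 12.31 in DLP.

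The wider pathway was described with 3 lists, of steroid enzymes, of receptor cofactors and chaperones, and of androgen-regulated genes of the prostate. Of 103 listed genes 79 were tested. On the high fat diet 50 differed by lobe, 25 higher and 25 lower in DLP, or 63.3% against 52.9% of all genes. Among control arrays 54 did, 28 higher and 26 lower, or 68.4% against 55%. The median log2 difference over the 79 genes was 0.00 on the high fat diet and -0.03 on the control diet, against 0.00 over all genes on both diets.

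Of 28 steroid enzymes listed, 22 had a probe set given to them alone and 12 were tested. Hsd17b3, Hsd3b1, Cyp17a1 and Star were among those below the filter, so the counts do not cover them. All 12 tested differed by lobe on the high fat diet, with 4 higher and 8 lower in DLP and a median of -0.65. Of all genes 52.9% passed and 26.1% passed as lower. Among control arrays 10 of 12 did, with 3 higher, 7 lower and a median of -0.50, against 55% of all genes and 26.8% lower. The counts include Cyp11a1 and Hsd11b2, which lay below the array median on all 9 DLP arrays and entered the test through VP alone. Hsd17b11, a 17-beta-hydroxysteroid dehydrogenase, was higher in DLP by 1.37 ± 0.13 (SE) on the high fat diet and 1.57 ± 0.12 on the control diet. Hsd17b4, which acts in peroxisomal fatty acid oxidation, was higher by 0.69 on the control diet, and Rdh11, a retinal reductase, by 0.99 on the high fat diet. Hsd3b7, an enzyme of bile acid synthesis, differed by -1.05 on the high fat diet and -1.18 on the control diet. Hsd11b1, which regenerates active glucocorticoid, averaged 2.89 ± 0.16 in control DLP and 4.30 ± 0.29 in control VP (log2, SD, n = 5 each), a difference of -1.40. Cyp11a1, the side-chain cleavage enzyme, averaged 1.41 ± 0.15 in HFD DLP (log2, SD, n = 4) and 2.73 ± 0.32 in HFD VP (n = 5). Its difference of -1.32 is uncertain in size, since it was -0.30 with an offset of 16. These genes also passed in the same direction on the other diet, values named after they had been seen. Hsd17b4 differed by 0.53 and Hsd11b1 by -1.02 on the high fat diet. On the control diet Rdh11 differed by 0.50 and Cyp11a1 by -0.94.

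Srd5a3, the listed relative of the steroid reductases and known for its part in dolichol synthesis, was named after its values had been seen. It averaged 3.45 ± 0.06 in HFD DLP (log2, SD, n = 4) and 3.15 ± 0.18 in HFD VP (n = 5), a difference of 0.30 with limma's adjusted p of 0.01. Its control diet mean was 3.51 ± 0.08 in DLP and 3.33 ± 0.14 in VP (log2, SD, n = 5 each), a difference of 0.18 with limma's adjusted p of 0.0876.

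Of 24 receptor cofactors and chaperones tested, 12 differed by lobe on the high fat diet, 8 higher and 4 lower, and 14 on the control diet, 8 higher and 6 lower. These shares of 50% and 58.3% lie near the 52.9% and 55% of all genes and are no result about this list. Gata2, a zinc finger factor that binds beside the androgen receptor in human prostate cells, averaged 7.79 ± 0.17 in HFD DLP (log2, SD, n = 4) and 3.84 ± 0.51 in HFD VP (n = 5), a difference of 3.94. Among control arrays it averaged 7.61 ± 0.19 in DLP and 3.58 ± 0.47 in VP (n = 5 each), a difference of 4.03. Its relative Gata3 differed by 2.61 on the high fat diet and 2.48 on the control diet. The prostate homeobox gene Hoxb13 was lower in DLP, at -0.84 (HFD) and -0.96 (control), as was the forkhead gene Foxp1, at -0.70 (HFD) and -0.49 (control). Each of these passed limma's test on both diets, with adjusted p-values of at most 2.64e-05. Fkbp4, which encodes the co-chaperone that competes with the product of Fkbp5 in receptor complexes, differed by 0.97 (HFD) and 0.94 (control) and was likewise named after its values had been seen, so it was higher in the lobe where Fkbp5 was lower.

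Of 43 androgen-regulated genes tested, 26 differed by lobe on the high fat diet, 13 in each direction, and 30 on the control diet, 17 higher and 13 lower in DLP. The shares were 60.5% on the high fat diet and 69.8% on the control diet, against 52.9% and 55% of all genes. Hpgd, which degrades prostaglandins, was higher in DLP by 2.55 (HFD) and 2.22 (control), and the secretory protein Pbsn (probasin) by 2.25 (HFD) and 2.18 (control). Pbsn was uneven in VP, with log2 levels from 7.97 to 11.99 on the high fat diet and from 7.40 to 11.95 on the control diet. In DLP its levels were 12.39 to 12.73 on both diets, near the top of the fixed set of array values. Spink1 in VP and Tgm4 in DLP also lay near that top, which may bound the size of these differences. The Pbsn call on the high fat diet was lost without array 2 of HFD VP (1.93, adjusted p 0.0527) or array 4 (1.66, adjusted p 0.0606), and that on the control diet without array 2 of control VP (1.43, adjusted p 0.0518). Genes lower in DLP included Slc45a3 (prostein), at -1.41 on the control diet and -1.45 on the high fat diet, the latter named after its value had been seen. Spink1 differed by -6.95 (HFD) and -3.72 (control), sizes that vary with the arrays given above. Tmprss2, a membrane serine protease, was named after its values had been seen and was higher in DLP by 1.00 (HFD) and 1.13 (control).

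Among the listed genes, Tsc22d3, Zbtb16 and Sgk1 are, like Fkbp5, also known to respond to glucocorticoids. Tsc22d3, encoding the glucocorticoid-induced leucine zipper protein, averaged 4.81 ± 0.13 in HFD DLP (log2, SD, n = 4) and 6.29 ± 0.18 in HFD VP (n = 5), a difference of -1.48 with limma's adjusted p of 1.5e-09. Its control diet difference was -1.18. Zbtb16, a zinc finger repressor, differed by -0.53 (HFD) and -0.36 (control), with limma's adjusted p-values of 0.00122 and 0.0142. The kinase gene Sgk1 was higher in DLP, by 1.31 (HFD) and 1.29 (control), with adjusted p-values of 0.00034 and 0.000209. Nr3c1, the glucocorticoid receptor gene, differed by 0.16 (HFD, adjusted p 0.0386) and -0.08 (control, adjusted p 0.245). Zbtb16, Sgk1 and Nr3c1, and Tsc22d3 on the control diet, were named after their values had been seen.

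**Figure D4:**
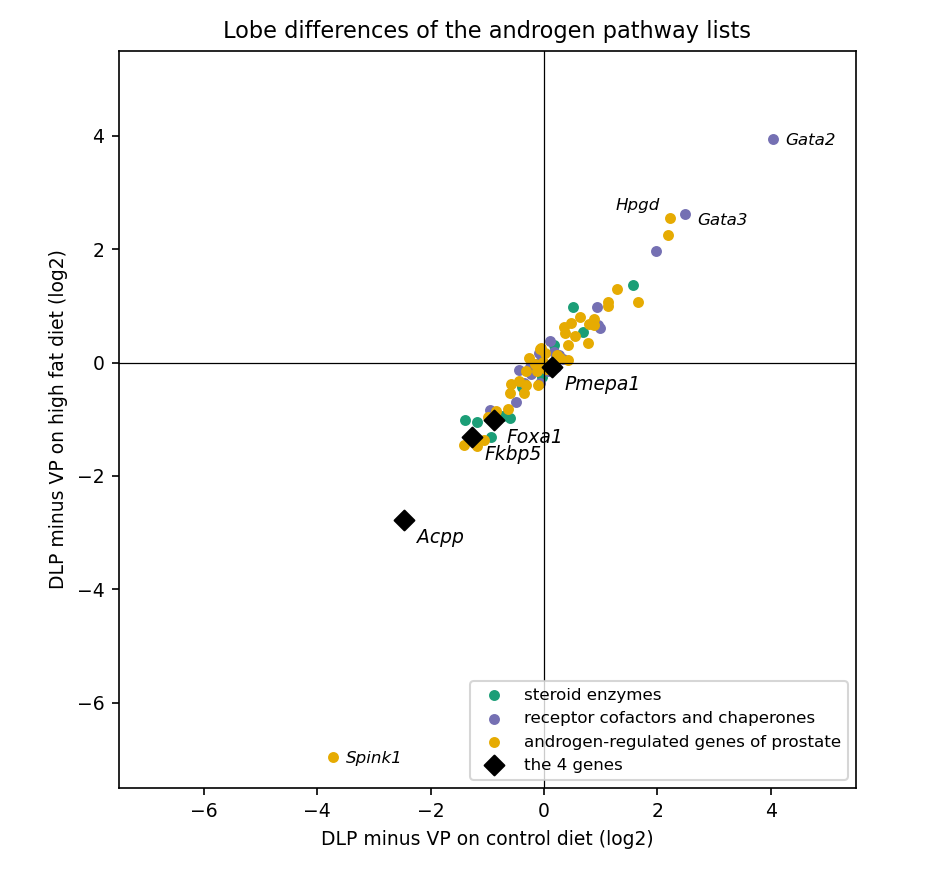
Log2 difference, DLP minus VP, of the 79 tested genes of the 3 lists (dots coloured by list) and of Fkbp5, Foxa1, Pmepa1 and Acpp (diamonds), on the high fat diet (vertical axis) and the control diet (horizontal axis). Gata2 lies highest at 3.94 (HFD) and 4.03 (control), Spink1 lowest at -6.95 (HFD) and -3.72 (control), and Acpp at -2.77 (HFD) and -2.46 (control) lies below the other 3 diamonds.

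By diet, 2 of the 79 listed genes passed in VP, both lower on the high fat diet, or 2.53% against 1.11% of all genes. Mboat2, a lysophospholipid acyltransferase, averaged 2.88 ± 0.15 in HFD VP and 3.49 ± 0.28 in control VP (log2, SD, n = 5 each), a difference of -0.60 with limma's adjusted p of 0.0401. Rdh11 averaged 3.21 ± 0.14 in HFD VP and 3.53 ± 0.14 in control VP (log2, SD, n = 5 each), a difference of -0.33 with limma's adjusted p of 0.048, and its groups overlapped (it was named for this contrast after its values had been seen). With 1 array left out Mboat2 lost its call in 10 of 19 fits, with a highest adjusted p of 0.0734, and Rdh11 in 16 of 19, with a highest of 0.103. In DLP none of the 79 passed in limma's test, where no gene at all did. Listed genes that are androgen-regulated had a median diet difference of 0.02 in VP and -0.04 in DLP, against 0.01 over all genes in each lobe.

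The genes whose pattern over the 19 arrays was most like each of the 4 were found by the root mean square difference after centring each gene on its own mean. Fndc5 and Sntb1 lay 0.19 log2 units from Fkbp5, whose own SD over the arrays was 0.70. Pwwp2b and Cep350 lay 0.11 and 0.12 from Foxa1, with an SD of 0.51. Tbc1d24 and Rnf130 lay 0.25 and 0.26 from Acpp, with an SD of 1.39, and Rnf130 differed by lobe by -2.81 on the high fat diet and -2.48 on the control diet. For Pmepa1 the nearest genes, Anxa5 and Sh3bp1, lay at 0.19, with an SD of 0.31.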

How the data were processed

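RNA from 19 prostate samples was measured on a 3′ array labelled with biotin. Per the submitters' processing notes MAS5 was used. The deposited values are on a log scale taken as log10, from 0 to 3.99 with a median of 0.555, and sorted values were identical on all arrays. The step that made them so and the log base are not given in the sources used here. Hybridization controls rose by 0.50 and 0.62 from bioB to bioC and bioD, against 0.52 and 0.70 for log10 of nominal concentrations, and by 0.99 from bioD to cre, against 0.60.

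Values were converted to log2, with no further normalization. Of 45101 probe sets, 64 controls were left out, 34958 had 1 symbol (34754 updated through gene identifiers), 932 several and 9211 none. A probe set was kept when above its array's median on at least 4 arrays, and the one with the highest mean stood for a gene. Tests used limma 3.58.1 in R 4.3.3 (4 group means, all 19 arrays, eBayes with a trend), with two-sided Benjamini-Hochberg values at 0.05 over 11728 genes, after checking on simulated data. No p was adjusted over a list alone. The lists, rules and most alternatives were written with earlier results of these data known, and so were the 4 genes. Named list genes were up to 2 per direction, list and comparison with the largest difference among those that passed without overlap between groups. Alternatives covered the filter, the offset, the probe set, the variance prior, weights, normalization, a replicate block and each array left out. The number of arrays limits the precision.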

Additional observations from a re-analysis of the deposited data

How the results depend on the processing

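None of the 4 genes passed by diet in either lobe, or in the difference between lobes, under any alternative that tested it or with any array left out. Pmepa1 lay below the filter at the 75th percentile and was not tested there. Fkbp5, Foxa1 and Acpp passed by lobe on both diets under each alternative, except with other probe sets. With 1447736_at Fkbp5 differed by 0.18 on the control diet. The counts over all genes were less stable. In VP 130 genes passed by diet, against 209 with the filter at the 75th percentile, 78 without it, 47 with the mean of probe sets, 83 without a trend, 47 with array weights, 21 with 1 weight per lobe, 237 with the replicate block by number within lobe (added after the data had been seen), and 70 to 148 with 1 array left out. With VP arrays alone limma called 0 genes (1222 at an unadjusted p under 0.05), the smallest adjusted p being 0.0507. In DLP the count was 0, against 1 without the filter, 4 with an offset of 16, 5 with array weights, 6 with 1 weight per lobe, and 0 to 2 with 1 array left out. The difference between lobes called 1 gene, against 0 with the mean of probe sets (913 at an unadjusted p under 0.05), 3 without control VP 4 and HFD VP 3, and 0 to 2 with 1 array left out. The count of listed genes called by diet in VP was 2, against 0 without the filter, with an offset of 16, with the mean of probe sets, with either weighting and with VP arrays alone, 1 without a trend, 1 without both of those arrays (where neither Mboat2, adjusted p 0.0726, nor Rdh11, 0.115, passed, so the call was another gene's), and 0 to 2 with 1 array left out. The cause of these shifts was not tested. Replicate numbers were not taken as pairs, since they are not stated to mark the same mouse. The deviations of same-numbered DLP and VP arrays of a diet correlated at -0.07 to 0.19. Those of same-numbered HFD and control arrays of a lobe correlated at -0.15 to 0.46. Differently numbered arrays were not compared, so these values cannot tell whether a number marks a mouse. With arrays of 1 diet and number as a replicate block (correlation 0.044) the lobe counts were 6300 on the high fat diet and 6549 on the control diet, and the block changed no call of the 4 genes. Differences of genes below the array median, Acpp in DLP among them, are limited by their dim signal.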
